A study of Mus musculus with 14 samples.

Results

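Haemoglobin is a tetramer of alpha-type and beta-type globin chains, each of which carries a haem group. In mice the alpha-type genes lie together on chromosome 11 and the beta-type genes on chromosome 7, and each cluster holds embryonic members (Hba-x, Hbb-y, Hbb-bh1) next to the adult ones. Hba-x encodes the zeta chain and Hbb-y the epsilon-y chain of primitive red cells, which form in the yolk sac, whereas definitive red cells of the fetal liver and adult marrow mainly use the adult genes. Erythropoietin (EPO) keeps progenitors alive while they mature towards the globin-producing erythroblast, and the chaperone encoded by Ahsp binds free alpha chains.

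The globin genes were followed over 14 Affymetrix mouse arrays. All probe sets were taken whose annotated symbol starts with Hba- or Hbb-, or is Ahsp or its older name Eraf, also where a probe set names several globin genes. Of 45037 probe sets, 15 met this rule. They name 9 of the 19324 genes named on the array: 5 probe sets name adult alpha genes, 3 name adult beta genes, 1 names Hba-x, 3 name Hbb-y and 3 name Hbb-bh1. No probe set in the annotation used names Ahsp or Eraf, and Ahsp was not analysed here.

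Marrow came from wild-type C57Bl/6 female mice of 8 to 12 weeks and was expanded in SP34ex medium, which itself contained EPO and stem cell factor. Stage E1 cells are CFUe-like progenitors, taken at day 3 by depletion of lineage-positive cells and selection for Kit and CD71. Stage E2 cells are proerythroblasts, taken at day 3.5 from parallel cultures by depletion of lineage-positive and of Kit-positive cells and selection for CD71. All cells were held for 5.5 h without haematopoietic cytokines and then given EPO at 4 U/mL (EPO-challenged) or carrier (unchallenged) for 90 min. Stage E1 has 4 arrays of each kind and stage E2 has 3 of each, deposited as biological replicates, and these numbers limit the precision of every value. The days and ages given here are those of the labels, whereas the study's methods name the same culture day for both stages and a wider range of ages. Stage and selection cannot be told apart, nor can stage and culture day where the days differed. The deposited log2 values have 1 constant per probe set subtracted, so they compare arrays for a probe set but give no level, and no probe set can be ranked against another.

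Facts of the whole series bear on the comparisons as follows. All 9 genes of a list of EPO response genes (among them Cish, Osm, Socs2 and Podxl) rose with EPO at both stages. Their median log2 changes were 3.84 in E1 and 3.93 in E2. The study itself reports Osm, Socs2 and others of them as EPO-induced in E1 cells, so their rise in E1 is not an independent check. The SD over all probe sets of an array was 0.63 to 0.74 in E1 and 0.26 to 0.29 in E2. Of all probe sets, 10.1% were higher and 10.8% lower in unchallenged E2 than E1 cells (limma adjusted p under 0.05). Between the unchallenged stages, 8 of 14 neutrophil markers were lower in E2 and none was higher, and the mean of the 14 log2 values ran from 3.81 to 4.22 over the E1 arrays against -0.04 on each E2 array. The genes of neutrophil granules Mpo (log2 change -9.47, SE 0.16) and Elane (-7.01, SE 0.18) were among them. Of 13 monocyte and macrophage markers 3 were lower in E2, with array means of 0.44 to 0.64 in E1 and -0.10 to -0.09 in E2. Of 7 mast cell, basophil and eosinophil markers 3 were lower in E2 (array means 1.43 to 1.62 against -0.17 to -0.11). Of 8 megakaryocyte markers 7 were higher in E2 (array means -0.76 to -0.28 against 1.331 to 1.496). No marker of 8 for B cells and of 7 for T and NK cells passed, and at an unadjusted p under 0.05 the counts were 0 and 2. Whether a defining marker is at background cannot be read from values without levels. These lists move with stage as some globin probe sets do, and their part in the stage differences below was not tested. In bulk RNA, fewer cells of a type and less RNA per cell cannot be told apart.

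**Figure D1:**
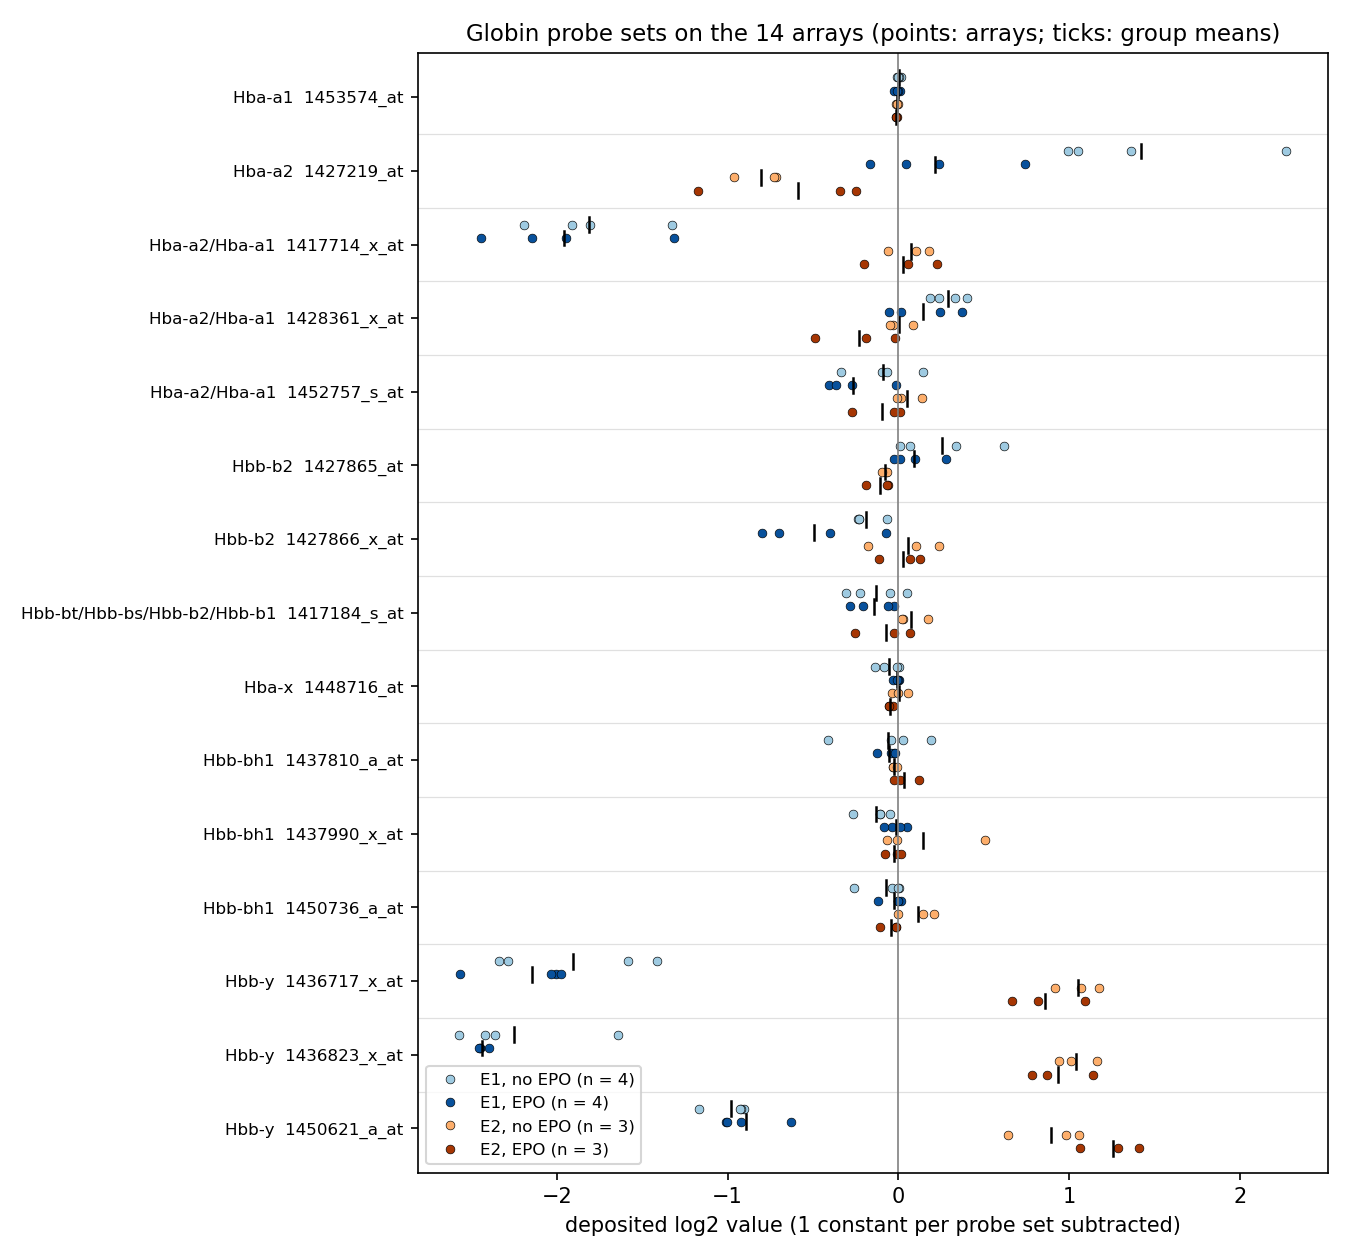
Deposited log2 value (x axis, 1 constant per probe set subtracted) of the 15 globin probe sets (rows) on each of the 14 arrays. Points are arrays, coloured by group, and vertical ticks are group means. The 3 Hbb-y probe sets and 1417714_x_at lie lower on all 8 E1 arrays than on all 6 E2 arrays, 1427219_at lies higher, and most other rows stay near 0 in all groups.

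The embryonic beta-like gene Hbb-y set the stages apart on each of its 3 probe sets and stood higher in the proerythroblasts. The size depended on the probe set, from 3.67-fold on 1450621_a_at to 9.78-fold on 1436823_x_at without EPO. Both with the larger changes, 1436823_x_at and 1436717_x_at, are of the "_x_at" type, whose probes may also match other transcripts. Because the values carry no level, nearness of the E1 readings of Hbb-y to background could not be examined. Of the 15 globin probe sets 5 passed between the unchallenged stages (adjusted p under 0.05, limma's moderated test over all probe sets), against 20.9% of all 45037 probe sets: 4 were higher in E2 (10.1% of all) and 1 was lower (10.8%). With EPO present 6 passed, against 22.3% of all, 5 of them higher (10.3%) and 1 lower (12.0%). On all arrays together 6 of the 15 did not overlap between the stages, where 33.0% of all probe sets do not. The 3 Hbb-y probe sets passed in both comparisons. The median log2 difference between stages over the 15 probe sets was 0.19 without EPO and 0.07 with EPO, beside -0.03 over all probe sets in each case.

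On 1436823_x_at (Hbb-y) the unchallenged E1 arrays read -2.36, -2.42, -1.64 and -2.57, and the EPO-challenged ones -2.40, -2.45, -2.45 and -2.45. The E2 arrays read 1.01, 0.94 and 1.17 without EPO and 0.78, 0.87 and 1.14 with it. All 6 E2 arrays thus lay above all 8 E1 arrays, and within a stage the EPO groups overlapped. The log2 difference between the stages was 3.29 without EPO (SE 0.18, 9.78-fold, limma adjusted p = 3.74e-07) and 3.37 with EPO (SE 0.18, 10.3-fold, adjusted p = 2.61e-07).

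The second Hbb-y probe set, 1436717_x_at, read -2.34, -2.29, -1.58 and -1.41 on the unchallenged E1 arrays and -2.01, -1.98, -2.56 and -2.03 on the EPO-challenged ones. In E2 it read 0.92, 1.07 and 1.17 without EPO and 0.67, 0.82 and 1.09 with it. The stages again did not overlap, with log2 differences of 2.96 (SE 0.24, adjusted p = 5.02e-06) without and 3.00 (SE 0.24, adjusted p = 3.98e-06) with EPO in limma. The third, 1450621_a_at, read -0.91, -0.92, -0.93 and -1.17 in unchallenged E1 cells and -1.008, -0.63, -0.92 and -1.005 in challenged ones, and 0.64, 0.98 and 1.06, then 1.07, 1.29 and 1.41, in E2. Its stage difference was smaller in size, at 1.87 without EPO (SE 0.13, limma adjusted p = 1.58e-06) and 2.15 with EPO (SE 0.13, adjusted p = 5.36e-07). Over the 14 arrays the 3 probe sets followed each other with Pearson's r of 0.957 to 0.982, a description in which the split between stages carries most of the spread.

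No probe set of the other embryonic genes passed between the stages in the main tests. Hbb-bh1, the neighbour of Hbb-y in the cluster, has 3 probe sets. The log2 differences without EPO were 0.04 (SE 0.11) on 1437810_a_at, 0.28 (SE 0.11, limma adjusted p = 0.114) on 1437990_x_at and 0.19 (SE 0.07, adjusted p = 0.0783) on 1450736_a_at. With EPO they were 0.09, -0.01 and -0.02. Without EPO, 1450736_a_at passed under 3 of 20 alternatives. These were quantile normalization (limma adjusted p = 0.0305), array weights (0.0238) and the fit without unchallenged E2 replicate 3 (0.0396). The probe set of Hba-x, 1448716_at, stayed between -0.13 and 0.05 on all 14 arrays, and its stage difference was 0.06 (SE 0.03, adjusted p = 0.198) without EPO and -0.04 (SE 0.03, adjusted p = 0.383) with EPO. Intervals of 95% kept the stage difference of each of these 4 probe sets within 0.53 log2 units of 0.

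The stretch just before the start of Hbb-y is shown with those of an adult beta gene, Hbb-bs, and an adult alpha gene, Hba-a1. Hbb-bs is measured only by a probe set shared with other beta genes, and the alpha probe sets gave no common direction between stages. The stretches are therefore not matched to a measured difference between these genes. Each is the 150 bases before the annotated start in RefSeq (build GRCm38.p6), in the direction of the gene. Capitals mark matches on either strand to the CACCC box, the CCAAT box, the TATA-like letters TATAA and their relative ATAAA, or the erythroid GATA letters GATAA. The TATA-like letter groups can overlap each other.
Hbb-y, chr7:103853208-103853357, minus strand: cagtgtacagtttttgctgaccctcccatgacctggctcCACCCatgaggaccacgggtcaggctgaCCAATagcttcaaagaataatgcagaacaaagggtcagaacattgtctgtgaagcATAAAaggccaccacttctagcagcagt
Hbb-bs, chr7:103827929-103828078, minus strand: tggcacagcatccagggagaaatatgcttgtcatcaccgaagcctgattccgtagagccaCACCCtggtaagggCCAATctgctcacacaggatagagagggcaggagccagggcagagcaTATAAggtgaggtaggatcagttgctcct
Hba-a1, chr11:32283522-32283671, plus strand: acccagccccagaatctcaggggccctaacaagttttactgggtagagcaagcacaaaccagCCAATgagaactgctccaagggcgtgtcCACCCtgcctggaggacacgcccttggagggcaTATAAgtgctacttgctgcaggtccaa

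All 3 stretches hold CACCC and CCAAT, which occur in 37.4% and 24.5% of 32851 promoter windows of this length. In Hbb-bs the CACCC match starts 90 bases and the CCAAT match 76 bases before the start of the gene. In Hbb-y the same letters start 111 and 83 bases before it. In Hba-a1 their order is turned, with CCAAT at 88 and CACCC at 60 bases. Hbb-bs and Hba-a1 have TATAA 29 and 27 bases before the start (14.2% of all windows hold it somewhere), and Hbb-y has ATAAA at 28 bases (24.1%). None of the 3 holds GATAA (13.3%), while the window of Hba-x does. The windows of Hba-a1 and Hba-a2 were identical over the 147 bases that overlap once the annotated starts, 3 bases apart, were lined up. Those of Hbb-bs and Hbb-bt, the other adult beta gene of this strain, were identical at 106 of 149 bases. A match to these letters is a description of the sequence and no evidence of a bound factor.

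The adult alpha genes Hba-a1 (chr11:32283672-32284486) and Hba-a2 (chr11:32296492-32297310) gave no common direction between the stages. Probe set 1417714_x_at, which names both genes, read -1.33, -1.91, -1.81 and -2.19 in unchallenged and -1.31, -2.44, -2.14 and -1.94 in challenged E1 cells. In E2 it read 0.18, -0.06 and 0.11 without EPO and 0.06, 0.23 and -0.20 with EPO. All E2 arrays lay above all E1 arrays, and the log2 difference was 1.88 without EPO (SE 0.25, 3.69-fold, limma adjusted p = 0.000242) and 1.99 with EPO (SE 0.25, 3.97-fold, adjusted p = 0.000148). Its values followed those of the Hbb-y probe sets with r of 0.922 to 0.952 over the 14 arrays, the stage split again being shared.

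Probe set 1427219_at, annotated to Hba-a2 alone, ran the opposite way. It read 2.27, 1.37, 1.05 and 0.996 on the unchallenged E1 arrays and 0.05, 0.24, -0.17 and 0.74 on the challenged ones. The E2 arrays read -0.96, -0.72 and -0.73 without EPO and -0.24, -0.34 and -1.17 with it. All 6 E2 values lay below all 8 E1 values. The log2 difference was -2.22 without EPO (SE 0.33, 4.67-fold lower in E2, limma adjusted p = 0.000525), and with EPO it was -0.80 (SE 0.33, 95% interval -1.53 to -0.07, adjusted p = 0.114), which did not pass. With EPO this probe set passed under 3 of 21 alternatives: quantile normalization (log2 difference -1.43), the more variable probe sets alone, and the fit without unchallenged E1 replicate 1.

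Both other probe sets that name Hba-a1 and Hba-a2 together differed little between stages. The log2 differences of 1452757_s_at were 0.14 (SE 0.12) without and 0.17 (SE 0.12) with EPO, neither of which passed. Those of 1428361_x_at were -0.29 (SE 0.12, limma adjusted p = 0.117) without EPO and -0.38 (SE 0.12, adjusted p = 0.0454) with EPO. The latter passed narrowly and was lost in 13 of 21 alternatives, among them the fits without EPO-challenged E1 replicates 1 or 4 (adjusted p = 0.107 and 0.0957) or EPO-challenged E2 replicates 2 or 3 (0.089 and 0.195). It was also lost without unchallenged E1 replicates 2, 3 or 4 or any 1 of the unchallenged E2 replicates (0.0537 to 0.0633). The probe set of Hba-a1 alone, 1453574_at, hardly varied: its SD over 14 arrays was 0.01, larger than that of only 3.5% of all probe sets. The alpha probe sets therefore hold 1 call in each direction at each EPO condition, and a change of the alpha genes as such cannot be read from them. In Affymetrix names, "_x_at" marks probe sets with probes that may also match other transcripts and "_s_at" those shared by a gene family.

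**Figure D2:**
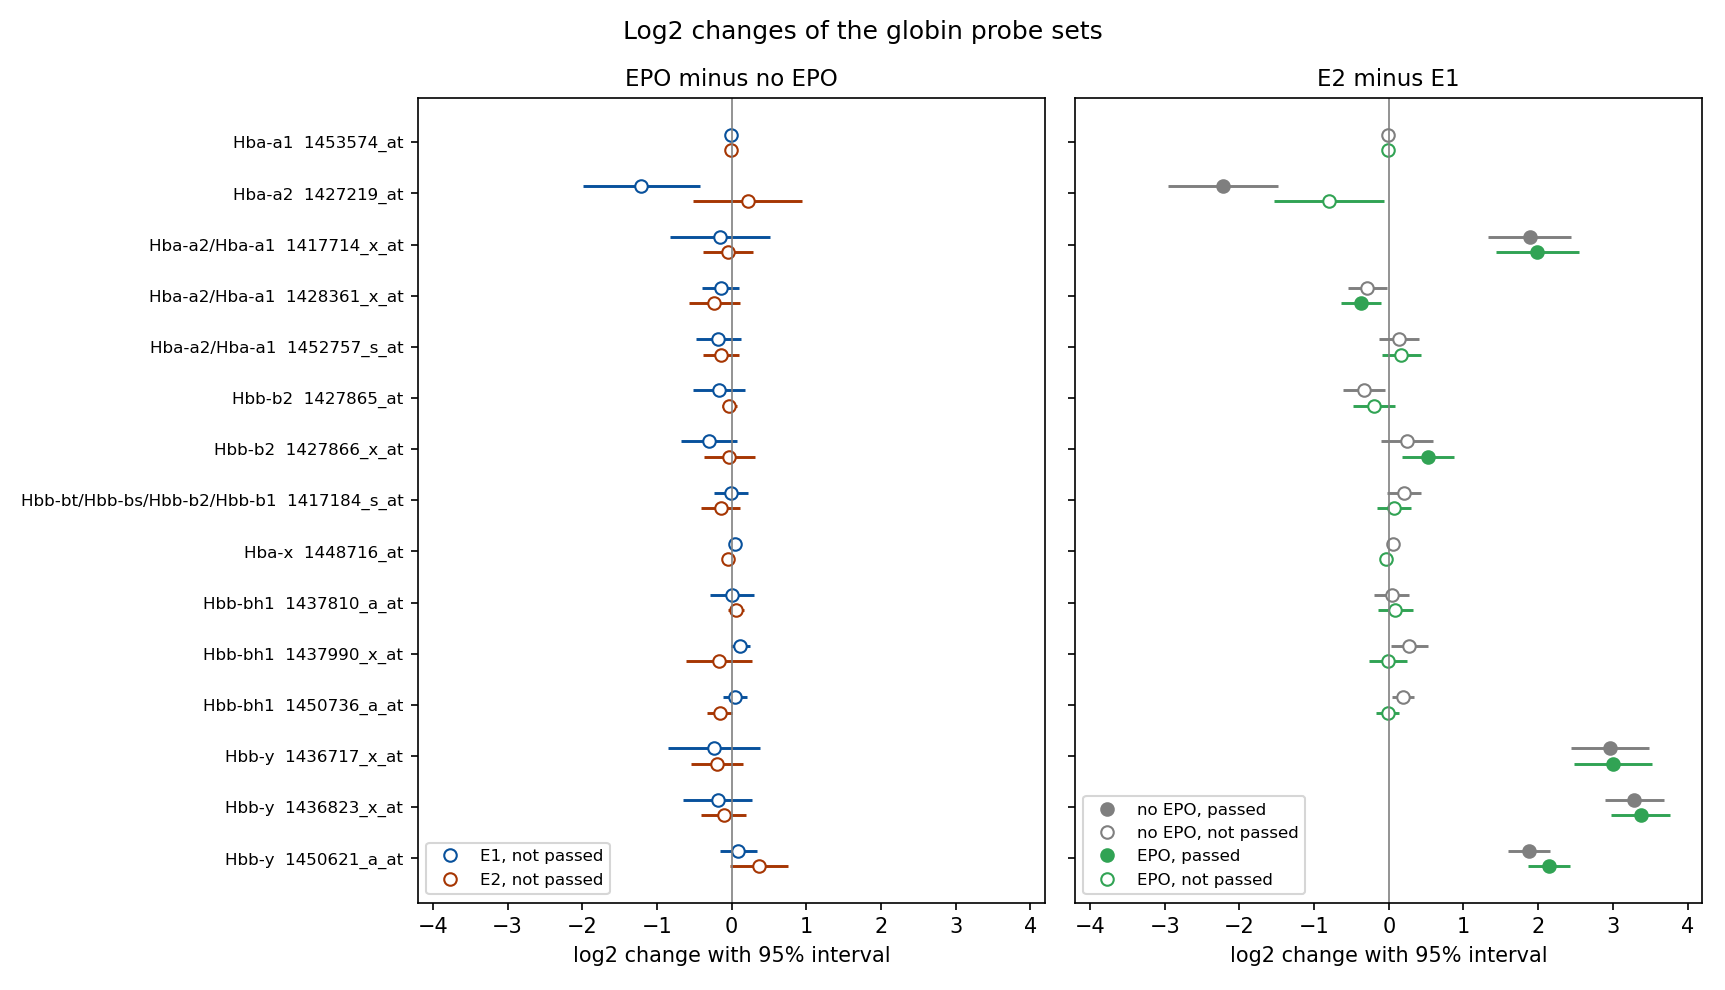
Log2 changes of the 15 globin probe sets with 95% intervals (x axes). Left: EPO minus no EPO in E1 and E2. Right: E2 minus E1 without and with EPO. Filled points passed (limma adjusted p under 0.05) and open points did not. All points on the left are open, and the filled ones on the right are the 3 Hbb-y probe sets, 1417714_x_at, 1427219_at (without EPO) and 2 small differences with EPO.

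The probe sets of the adult beta chain genes differed between the stages by at most 0.52 log2 units, and 1 of them passed, with EPO. C57Bl/6 mice carry Hbb-bs (chr7:103826523-103827928) and Hbb-bt (chr7:103812524-103813923) as their adult beta genes, while Hbb-b1 and Hbb-b2, which the array annotation also names, belong to another haplotype in RefSeq. The family probe set 1417184_s_at, which names all 4, read 0.05, -0.05, -0.22 and -0.31 in unchallenged E1 cells and 0.18, 0.03 and 0.02 in unchallenged E2 cells. The groups overlapped, and the log2 difference was 0.21 (SE 0.10, 95% interval -0.02 to 0.43, limma adjusted p = 0.172), and with EPO 0.07 (SE 0.10, adjusted p = 0.595). Of both probe sets annotated to Hbb-b2 alone, 1427865_at stood at -0.34 (SE 0.13, adjusted p = 0.0885) without EPO and -0.20 with EPO. The other, 1427866_x_at, stood at 0.25 (SE 0.16, adjusted p = 0.262) without EPO and 0.52 (SE 0.16, 1.43-fold, adjusted p = 0.0357) with EPO. That last call was lost in 8 of 21 alternatives, including quantile normalization (adjusted p = 0.123) and the fits without EPO-challenged E1 replicates 2 or 3 (0.0821 and 0.0888) and without each of the 3 EPO-challenged E2 replicates in turn (0.107, 0.119 and 0.0504) or unchallenged E2 replicate 2 (0.0507). Because the values carry no level, nearness of these probe sets to the upper limit of the scanner could not be examined.

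EPO moved no globin probe set past the test within 90 min. In E1, 0 of 15 passed, against 1.16% of all probe sets, and in E2 0 of 15 passed, against 4.62%. At an unadjusted p under 0.05, limma's two-sided test gave 1 in E1 and 0 in E2. The methods' t-test, which is one-sided, gave 2 in each stage before and 0 after Benjamini-Hochberg adjustment. The median log2 change with EPO over the 15 probe sets was -0.14 in E1 and -0.05 in E2, beside values under 0.01 in size over all probe sets. The 95% intervals of 14 of 15 probe sets in E1 and of all 15 in E2 kept the change with EPO below 2-fold in either direction.

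The exception in E1 was again 1427219_at (Hba-a2). Its 4 EPO-challenged values (-0.17 to 0.74) lay below its 4 unchallenged values (0.996 to 2.27), the only globin probe set of the 15 without overlap in E1, where 5.58% of all probe sets do not overlap. The log2 change was -1.21 (SE 0.33, 95% interval -1.99 to -0.42, unadjusted p = 0.00867), which did not pass over all probe sets (limma adjusted p = 0.23, and 0.0593 to 0.517 over 17 alternatives). With the replicate number as a block it did not pass either. In E2 the change was 0.22 (SE 0.28, adjusted p = 0.784). The difference of both EPO effects was 1.42 (SE 0.47, unadjusted p = 0.0117) and did not pass (adjusted p = 0.389). None of the 15 probe sets passed in this stage by EPO interaction, where 0.415% of all did, and 1 had an unadjusted p under 0.05. Beside this probe set, the other adult alpha probe sets changed with EPO in E1 by -0.18 to -0.01, and Hbb-y by -0.24, -0.19 and 0.09.

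In E2, 2 globin probe sets did not overlap between the EPO groups, where 23.1% of all probe sets do not. On the log2 scale Hbb-y shifted by 0.36 on 1450621_a_at (SE 0.15, adjusted p = 0.343 in limma), while both other Hbb-y probe sets stood at -0.19 and -0.11. Hbb-bh1 shifted by -0.16 on 1450736_a_at (SE 0.06, adjusted p = 0.327), while its other probe sets stood at 0.06 and -0.17. Neither passed, and the probe sets of each gene did not share a sign.

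Genes that work with the globins were read from lists, for each gene on the probe set with the largest SD. This choice favours probe sets that differ between stages. Of all probe sets, 10.1% were higher and 10.8% lower in E2 without EPO, and 10.3% and 12.0% with EPO. Haem synthesis supplies the group that each chain binds. Of 12 genes measured, 10 were higher and 1 was lower in E2 than E1 without EPO (median log2 difference 1.74), and 11 were higher with EPO (median 1.88). Alas2, the erythroid enzyme of the first step, was higher by 4.22 (SE 0.27, limma adjusted p = 8.87e-07). Fech, which inserts iron into the ring, was higher by 2.01 (SE 0.15, adjusted p = 2.33e-06), and the mitochondrial iron importer Slc25a37 by 2.25 (SE 0.10, adjusted p = 9.35e-08). The gene that fell was Alas1 (-0.59, SE 0.14, adjusted p = 0.0116), the form of the enzyme used in all tissues.

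Of 15 red cell maturation genes 12 were higher and 1 was lower in E2 in each EPO condition (median log2 differences 1.58 and 1.33). Slc4a1, the anion exchanger band 3, was higher by 6.61 (SE 0.33, limma adjusted p = 2.02e-07) without EPO, and Bpgm, which makes the regulator of oxygen binding 2,3-bisphosphoglycerate, by 3.88 (SE 0.28, adjusted p = 2.1e-06). Car1, a carbonic anhydrase, fell by 2.69 (SE 0.11, adjusted p = 6.19e-08).

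Of 16 regulators of globin genes 9 were higher and 2 were lower in E2 without EPO, and 8 and 3 with EPO (median log2 differences 0.68 and 0.44). Bcl11a and Sox6 are known as repressors of embryonic globin genes in definitive cells, and they differed in opposite directions. Sox6 was higher in E2 by 3.07 (SE 0.15, limma adjusted p = 1.48e-07), whereas Bcl11a was lower by 1.45 on the log2 scale (change -1.45, SE 0.17, adjusted p = 8.88e-05). Myb, another factor known to hold embryonic-type globin expression low, was lower as well (-3.25, SE 0.17, adjusted p = 2.64e-07). Bcl11a and Myb were the 2 regulators that passed as lower without EPO. Other listed regulators lay the other way: Zbtb7a read 0.62 to 0.71 in unchallenged E2 against -2.01 to -0.11 in unchallenged E1. Ikzf1 read 0.805 to 0.821 against -0.09 to 0.25. Whether any of these regulators bears on Hbb-y was not tested. The activators Gata1 (0.67, SE 0.07, adjusted p = 4.29e-05), Klf1 (0.40, SE 0.09, adjusted p = 0.00662) and Nfe2 (1.88, SE 0.16, adjusted p = 8.87e-06) were higher in E2.

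**Figure D3:**
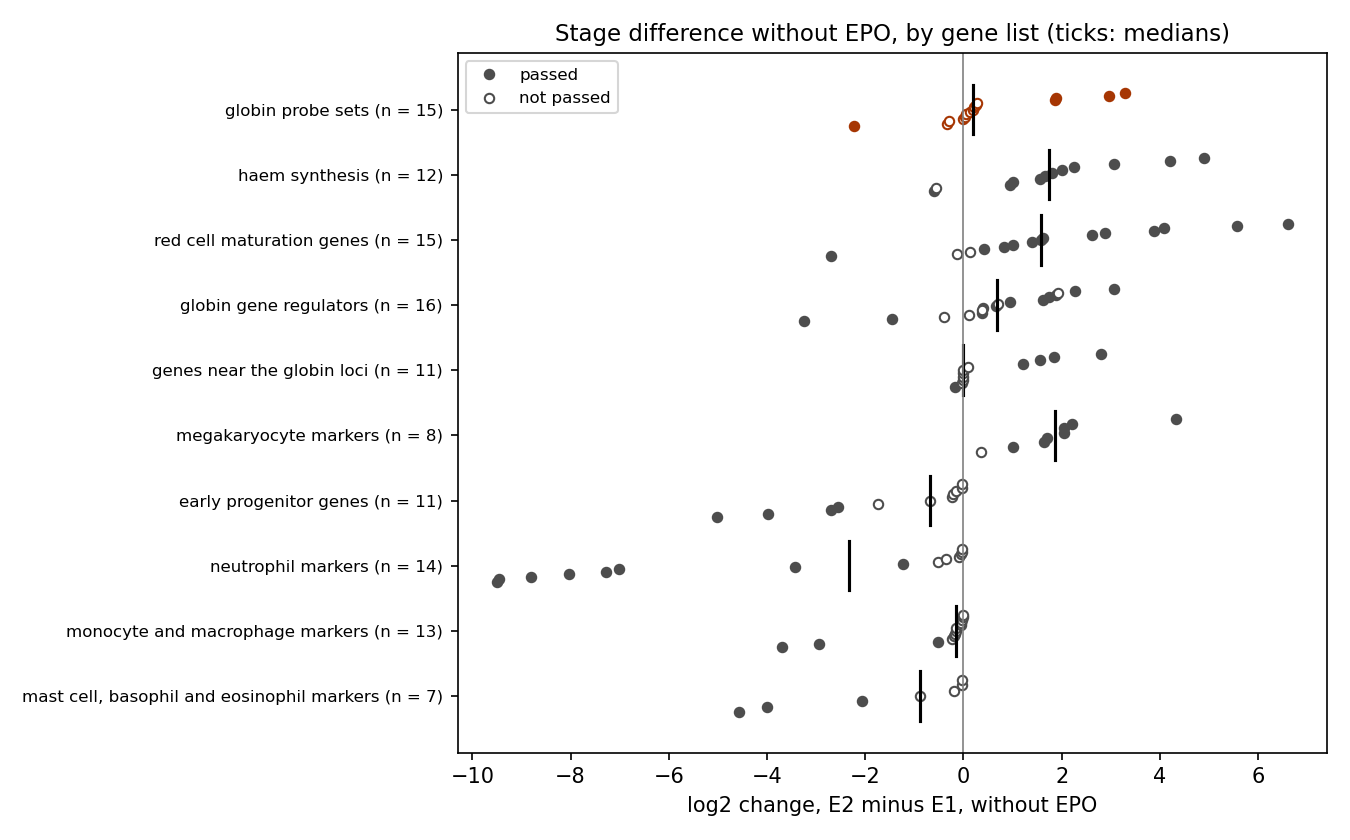
Log2 difference between unchallenged E2 and E1 cells (x axis) for the 15 globin probe sets and for the genes of 9 lists, 1 point per probe set or gene. Filled points passed (limma adjusted p under 0.05) and vertical ticks are medians. The medians of haem synthesis (1.74) and red cell maturation genes (1.58) lie above that of the globin probe sets (0.19), and 8 of 14 neutrophil markers lie below 0 and passed. Each listed gene is shown on its probe set with the largest SD, but globin genes on all their probe sets. The globin median is therefore not selected in the same way as the others.

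Over all probe sets, 1.16% passed with EPO in E1 and 4.62% in E2. In E1 no haem synthesis gene, regulator or maturation gene passed, while 3, 4 and 4 had an unadjusted p under 0.05 in limma. At that threshold all probe sets gave 3982 of 45037 in E1 and 7416 in E2. The lists gave 6 of 12 haem synthesis genes, 9 of 16 regulators and 7 of 15 maturation genes in E2. In E2, 1 haem synthesis gene rose (Alad, 0.44, SE 0.05, limma adjusted p = 0.0165) and 1 fell (Slc25a38, a mitochondrial glycine carrier, -0.53, SE 0.03, adjusted p = 0.0033). Of the regulators 2 rose and 2 fell in E2. Tal1 rose by 0.91 (SE 0.10, adjusted p = 0.0166) and Bcl11a by 0.44 (SE 0.06, adjusted p = 0.0254), whereas Ldb1 (-0.83, SE 0.08, adjusted p = 0.0111) and Zbtb7a (-0.61, SE 0.06, adjusted p = 0.0122) fell. Of the maturation genes 1 fell in E2 (Xpo7, -0.39, SE 0.05, adjusted p = 0.0218).

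Genes within 100 kb of either globin cluster were read in the same way. Around the alpha cluster on chromosome 11, 4 of 6 measured genes were higher in unchallenged E2 cells, where 10.1% of all probe sets were. Nprl3, whose introns hold the distal enhancers of the alpha genes and which lies 8.9 kb from the nearest globin gene, was higher by 1.57 on the log2 scale (SE 0.21, limma adjusted p = 0.000225). Rhbdf1, at 54.3 kb, was higher by 2.81 (SE 0.21, adjusted p = 2.88e-06), Mpg by 1.85 (SE 0.31, adjusted p = 0.00124) and Snrnp25 by 1.22 (SE 0.09, adjusted p = 3.19e-06). Il9r and Sh3pxd2b stood at -0.02 and 0.10 and did not pass. Around the beta cluster on chromosome 7 the 5 measured neighbours are olfactory receptor genes, with differences of -0.18 to -0.01. Olfr64 passed narrowly (-0.18, SE 0.06, adjusted p = 0.0462), and in most alternatives that tested it, it did not. No neighbour of either cluster passed with EPO in E1 or E2, and at an unadjusted p under 0.05 the limma counts were 0 and 1.

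The genes most like the globins were sought by Pearson's r over the 14 arrays among 34934 probe sets that name 1 other gene. The mean of the 8 adult alpha and beta probe sets was followed most closely by Shmt1 (r = 0.933), Kmt2d (0.846), Vps35l (0.838), Ftsj1 (0.830) and Cd72 (0.830). Shmt1 was the only one above 0.9. On deviations from the group means, which leave out the stage and EPO differences, other genes came first: Ace (0.952), Fads6 (0.949), Snhg5 (0.945), Dnal1 (0.942) and 6330403K07Rik (0.934). On that scale 35 probe sets had r over 0.9 with the adult mean. Within the mean, the adult probe sets with the largest SD, 1417714_x_at (1.04) and 1427219_at (0.995), ran opposite ways (r = -0.667). Its followers thus describe the mean and not each adult probe set. On the values, 1417714_x_at alone was followed most closely by Gpcpd1 (0.980), Lgmn (0.979) and Tmcc2 (0.978). For 1427219_at alone these were Abhd15 (0.958), Rfc1 (0.934) and Map3k12 (0.932). Of the probe sets searched, 2.89% had r over 0.9 with 1417714_x_at and 0.0773% with 1427219_at. The mean of the 3 Hbb-y probe sets, a pattern chosen after the values had been seen, was followed by Dnajb2 (0.995), Nsmce1 (0.994), Gpcpd1 (0.993), Ahi1 (0.993) and Atp6v0d1 (0.993), and 4.71% of the probe sets searched had r over 0.9 with it. On deviations from the group means, no probe set had r over 0.9 with the Hbb-y mean. These arrays share the split between stages, which correlations of the values reflect.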

How the data were processed

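RNA was hybridised to Affymetrix mouse arrays, which the authors scanned and processed with GCOS and GC-RMA (GeneSpring GX). The deposited values are taken as log2, the scale of GC-RMA, less 1 constant per probe set. Of all 45101 probe sets, controls included, 33826 show a value mirrored around 0 (tolerance 2e-06). A filter on levels was therefore not possible. The 64 control probe sets were left out. Groups come from the labels. Values were compared with limma 3.58.1 (R 4.3.3, data.table version 1.17.8), two-sided, with Benjamini-Hochberg adjustment over all probe sets: EPO within each stage, and stages and interaction in a fit of all 14 arrays. Named are all globin probe sets, their nearest patterns and neighbours, and up to 4 genes per list with the smallest p in the comparison described, plus Klf1, Nfe2, Gata1, Bcl11a, Fech and Alas1, chosen after their values were seen. The globin rule and all gene lists were chosen with earlier results of these data known. Probe sets naming 1 gene number 34945, several 932 and none 9160, by the platform annotation. Promoter sequences are RefSeq's (GRCm38.p6). The calculation was tested on simulated data.

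In E1, arrays of the same replicate number deviated together (r = 0.195, 0.187, 0.173 and 0.152). However, unchallenged replicate 4 with challenged replicate 3 reached 0.203, and the other pairs of unlike numbers gave -0.236 to 0.094. The numbers were taken to pair the E1 arrays, from the labels' numbers and these deviations alone. The main tests did not use this pairing. In E2, arrays of the same number did not deviate together (-0.061, -0.057 and -0.016). Alternatives were quantile normalization, median centring, a replicate block, array weights, eBayes with trend and robust fitting, the 22518 probe sets with the largest SD, fits on other sets of arrays, the methods' t-test and each array left out in turn.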

Additional observations from a re-analysis of the deposited data

Results flagged for a closer look

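In the stage E1 groups of 4 arrays, the gap between the outermost array and its nearest neighbour was set against the group's range for each of the 15 globin probe sets. Of 30 groups tested 6 held an array set apart in this way, and chance gives about 1 in 20 where groups are independent. These groups are probe sets read on the same 8 arrays and are not independent, so the 6 cannot be judged against that rate. For Hbb-y, EPO-challenged replicate 3 read -2.56 on 1436717_x_at (the others -2.03 to -1.98), EPO-challenged replicate 1 read -2.40 on 1436823_x_at (the others -2.45) and unchallenged replicate 4 read -1.17 on 1450621_a_at (the others -0.93 to -0.91). Each of these lay below 0, on the side of the other E1 arrays. For Hbb-bh1 on 1450736_a_at, replicate 4 was the lowest array in both groups, at -0.26 without EPO (the others -0.04 to 0.00) and -0.12 with EPO (the others 0.00 to 0.02). For Hbb-b2 on 1427866_x_at, unchallenged replicate 1 read -0.0668 (the others -0.234 to -0.23).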

How the results depend on the processing

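The counts of globin probe sets that passed kept within 1.5 times in 91 of 94 alternatives over the 5 comparisons. The exceptions were the methods' t-test without adjustment and array weights. The t-test, which is one-sided in the observed direction, gave 2 in place of 0 for EPO in E1 and 2 in place of 0 for EPO in E2. Array weights gave 8 in place of 5 between the unchallenged stages, and the cause was not tested. Leaving out 1 array at a time gave 0 for EPO in either stage and for the interaction, 5 to 6 between the unchallenged stages and 4 to 7 with EPO. Under the replicate block the counts were 0 for EPO in E1, E2 and the interaction and 5 and 6 between the stages, where the block was a random effect added after seeing the data because a fixed block lies within a stage. The replicate block changed no call of a globin probe set. Over all probe sets it left 61 of 524 calls for EPO in E1 and 417 of 2081 in E2 by number, and in E2 the numbers do not pair the arrays. The 3 Hbb-y probe sets and 1417714_x_at passed with the same sign in all 21 alternatives of each stage comparison, and 1427219_at in all 21 without EPO. No called value turned its sign. Precision is limited by 3 or 4 arrays per group and by values without levels.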
